A study of Homo sapiens with 12 samples.

Results

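ACHN is an established human kidney cancer cell line, which the labels call a clear cell renal cell carcinoma line. The comparison described here set ACHN cells given a miR-29 inhibitor against ACHN cells given a control inhibitor, and it addressed which transcripts change when the cells' own miR-29 is blocked. Its members were chosen by the cell line and reagent named in the labels, and they are 6 of the 12 RNA-seq libraries of the series. There are 3 libraries of each group, which the study describes as biological replicates. The remaining libraries come from 786-O and A-498 cells, kidney cancer lines that received a miR-29 mimic or a control mimic, and of these only the 4 A-498 libraries were used, for the closing comparison. All ACHN cultures were transfected by lipofection with their oligonucleotide at 10 nM in medium without antibiotics, and total RNA was taken 48 h later. No untransfected ACHN library was analysed here, so what the control inhibitor itself does cannot be told apart from the starting state of the cells.

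MicroRNAs are short RNAs that guide Argonaute proteins to messenger RNAs, mainly by pairing of the seed near their 5′ end with the 3′ untranslated region (3′ UTR). A bound mRNA is translated less and decays faster, so an inhibitor that pairs with the microRNA is used to release its targets. The miR-29 family is known above all for holding down collagens and other extracellular matrix genes, with a well-described role in kidney fibrosis, and for targeting enzymes that write and erase DNA methylation. Its 3 mature human sequences are printed here because the shared seed defines the target sites searched for in the mRNAs. They were taken from RefSeq (GRCh38.p14), with nucleotides 2 to 8, the seed, in capitals.
hsa-miR-29a-3p: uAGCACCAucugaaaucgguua
hsa-miR-29b-3p: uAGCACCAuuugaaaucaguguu
hsa-miR-29c-3p: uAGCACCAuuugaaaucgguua
The miR-29a copy lies at chr7:130876748-130876769 and a miR-29b copy at chr7:130877467-130877489. A second miR-29b copy lies at chr1:207802450-207802472 and miR-29c at chr1:207801865-207801886, all on the minus strand. The sequence of the inhibitor is not given in the sources used here, so how well it covers each of the 3 sequences is unknown.

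An mRNA that the seed can pair with carries the word TGGTGCT on its sense strand. The word TGGTGCTA adds an A opposite the first nucleotide and is called an 8mer, and GGTGCTA is the shorter 7mer-A1 form, which lies within every 8mer and was counted only outside one. Among the canonical 3′ UTRs of 19224 protein-coding genes, 9.99% held TGGTGCT in the first 2000 nt, 2.09% held the 8mer and 2.5% held a separate 7mer-A1. The sites of 7 genes that changed strongly are printed as examples of the word in its surroundings. Each is the mRNA sense strand, 5′ to 3′, ending with the match, which is in capitals at the GRCh38 position given.
COL4A1 (chr13:110150326-110150333, minus strand): gctaatgtcacaacaTGGTGCTA
LAMC1 (chr1:183144253-183144260, plus strand): tattatctgacacacTGGTGCTA
DNMT3B (chr20:32809105-32809112, plus strand): ttttactcttcttacTGGTGCTA
MCL1 (chr1:150576039-150576046, minus strand): aggctagtctaaccaTGGTGCTA
CLDN1 (chr3:190306632-190306639, minus strand): cctggatttgagtctTGGTGCTA
PPIC (chr5:123023634-123023641, minus strand): atccccttcctcaagTGGTGCTA
SPARC (chr5:151663461-151663467, minus strand): ttctgcctggagacaaGGTGCTA
SPARC (chr5:151663428-151663434, minus strand): aagtgaatacattaacGGTGCTA
The first 6 hold the 8mer, whereas SPARC holds a pair of 7mer-A1 words and no TGGTGCT in its first 2000 nt. A match describes the letters only and is not evidence of binding.

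The control libraries held 39919554 to 48626762 reads assigned to genes and the inhibitor libraries 52369886 to 70027392, so the groups did not overlap in depth. Reads shared by overlapping genes were 7.01% to 7.52% of all reads in the controls and 7.49% to 9.06% in the inhibitor libraries. Mitochondrial transcripts took 0.770% to 0.825% and 0.836% to 0.877% of the reads in genes. The first principal component, with 44.8% of the variance, separated the groups. Of 12 markers of renal epithelium and renal carcinoma, PAX8, PAX2, LHX1, the keratins KRT8 and KRT18 and vimentin (VIM) were present in every library. CA9, EMX2 and CDH6 were near 0, the first of which is a usual marker of clear cell carcinoma. The summed level of these 12 markers was 6510 to 6925 CPM (counts scaled to a common library size) in the controls and 5529 to 5648 CPM in the inhibitor libraries. Leukocyte markers summed to 5.59 to 7.35 and 6.22 to 7.13 CPM, nearly all of it ITGAM, and endothelial markers to 0.350 to 0.569 and 0.793 to 1.05 CPM. Fibroblast markers summed to 197 to 221 and 170 to 191 CPM, nearly all of it THY1, with DCN, LUM, PDGFRA and FAP below 1 CPM. The part of read assignment and markers in the results was not tested. Depth was varied only by thinning all libraries to the shallowest, a step chosen after seeing the data. It gave 2791 genes called higher and 2705 lower, against 3102 and 2578 at full depth. In bulk RNA, fewer cells of a kind and less RNA per cell cannot be told apart.

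Mature miR-29 is too short for these libraries, so the inhibited RNA itself was not measured. The long non-coding RNA MIR29B2CHG on chromosome 1, whose transcript gives rise to miR-29b and miR-29c, measured 4.48, 4.98 and 4.57 CPM in the control libraries and 6.24, 6.69 and 5.98 CPM in the inhibitor libraries. The groups did not overlap, and the host transcript was higher under the inhibitor (log2 change 0.43, SE 0.0924, adjusted p = 0.00148). It reports the amount of precursor RNA and not the activity of the microRNA.

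Under the inhibitor many transcripts changed by small amounts and a few by much. Of 17904 genes tested, 3102 (17.3%) were called higher and 2578 (14.4%) lower at an adjusted p of 0.05. Among the 13058 protein-coding genes tested these shares were 21.5% and 17.8%, which are the nearer background for every list below. Changes of at least 2-fold were lopsided, with 163 genes higher and 51 lower. The median absolute log2 change of called genes was 0.28, and 2655 of the calls were changes of less than 1.2-fold. The inhibitor libraries lay entirely above the controls in 22.8% of genes and entirely below them in 20.8%. The ACHN p-values rest on the spread between the 3 libraries of each group, pooled in part across genes. Those of the closing comparison also draw on the 2 libraries of each A-498 group. Levels written as a mean ± SD are over the 3 ACHN libraries of a group (n = 3). Differences below are on the log2 scale, inhibitor minus control, unless a level in CPM is named. A signed number in parentheses after a gene is its log2 change, and sites are TGGTGCT words in the first 2000 nt of the 3′ UTR.

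Among genes averaging 3 or more in log2 CPM, the largest rise was that of SPARC, a collagen-binding glycoprotein of the matrix encoded at chr5:151661096-151686975. It measured 358, 354 and 375 CPM in the controls and 1547, 1607 and 1613 CPM in the inhibitor libraries, a 4.38-fold difference (log2 change 2.13, SE 0.0357, adjusted p = 5.23e-18). C1QTNF6, a secreted protein with a collagen-like stretch, measured 9.55, 10.3 and 8.82 CPM and 32.5, 36.2 and 30.6 CPM (log2 change 1.79, SE 0.0736, adjusted p = 2.83e-12) and carried 3 sites. The secreted follistatin-like protein FSTL1 rose from 147, 144 and 152 CPM to 409, 434 and 452 CPM (log2 change 1.55, SE 0.0445, adjusted p = 2.91e-14). Genes outside the matrix rose as well, by somewhat less. DCP2, the enzyme that removes the mRNA cap before decay, rose from 62.4 ± 2.75 to 166 ± 6.37 CPM (log2 change 1.41, SE 0.0499, adjusted p = 5.06e-13). POGLUT2, which adds glucose to folded repeats of secreted proteins, rose from 115 ± 5.66 to 303 ± 17.8 CPM with a log2 change of 1.39. ENTPD7, a nucleotide-hydrolysing enzyme of internal membranes, rose from 176 ± 3.01 to 458 ± 6.98 CPM with a change of 1.38, and MPZL3 from 4.53 ± 0.24 to 12.2 ± 0.571 CPM with a change of 1.43. These genes were picked among those whose groups did not overlap, and the plot of the largest changes shows each library.

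**Figure D1:**
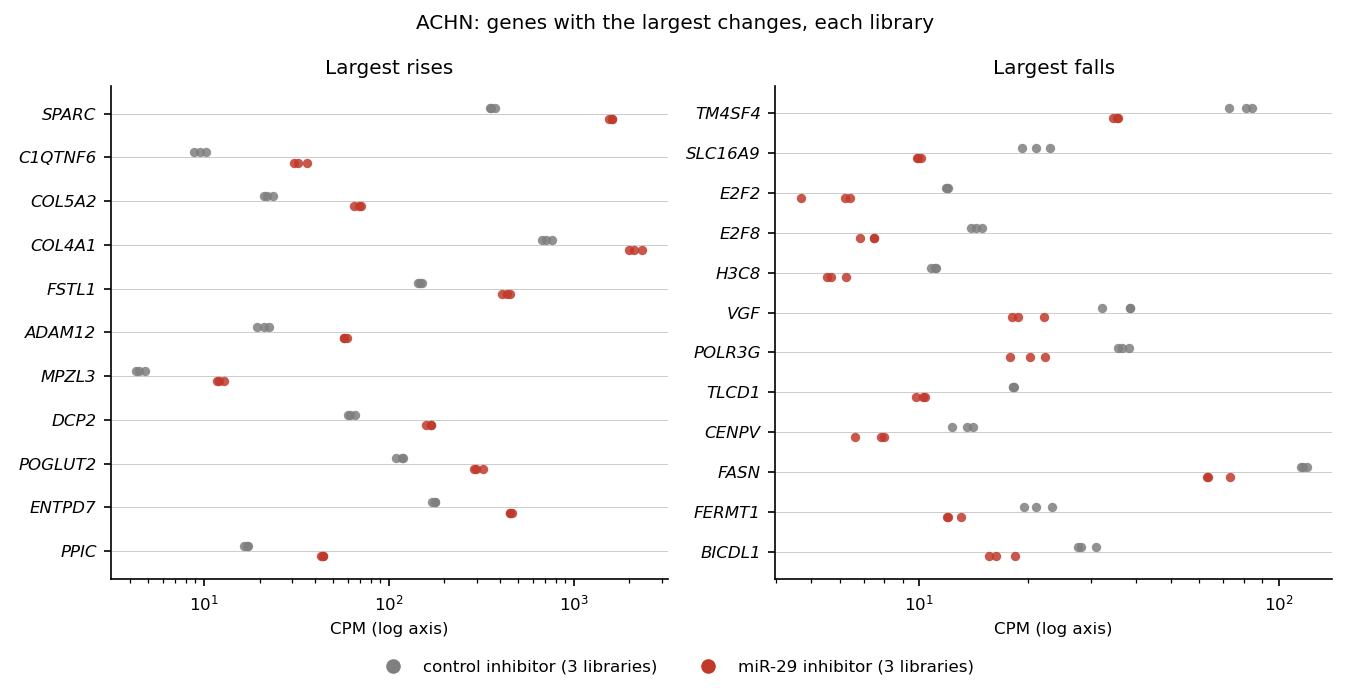
Levels in CPM (log axis) of 11 of the 12 genes with the largest rises and of the 12 with the largest falls, one point per library, grey for the 3 control and red for the 3 inhibitor libraries. The genes were picked among those whose groups stand apart. The rise of SPARC from about 362 to 1589 CPM exceeds all the falls.

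The 12 largest falls were smaller and held no matrix gene. TM4SF4, a membrane protein of the tetraspan kind, measured 81.0, 72.7 and 84.3 CPM in the controls and 35.8, 34.5 and 35.4 CPM under the inhibitor (log2 change -1.17, SE 0.0511, adjusted p = 6.12e-12). SLC16A9, of the monocarboxylate transporter family, fell from 21.1 ± 1.88 to 9.98 ± 0.138 CPM (log2 change -1.08, SE 0.0711, adjusted p = 2.05e-09). The secreted neuropeptide precursor VGF fell from 36.5 ± 3.62 to 19.7 ± 2.21 CPM, the RNA polymerase III subunit POLR3G from 36.8 ± 1.28 to 20.2 ± 2.21 CPM and the membrane lipid regulator TLCD1 from 18.3 ± 0.101 to 10.1 ± 0.31 CPM. Their log2 changes were -0.89, -0.87 and -0.85. CENPV, FERMT1 (an integrin activator) and the dynein adaptor BICDL1 changed by -0.83, -0.79 and -0.79, and CENPV has a site. The others among the 12, E2F2, E2F8, a histone gene and FASN, are described with their groups.

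Genes with a seed match were called higher more often than genes without one. This was read first in 2980 tested genes whose transcripts share a single 3′ UTR in a single exon, where the window searched is not in doubt. Of the 2645 without TGGTGCT, 18.5% were higher and 18.9% lower, with a median change of -0.01. Of the 306 with 1 site, 44.1% were higher and 7.84% lower, with a median of 0.14. Of the 25 genes with 2 sites 44% were higher too and 8% lower, with a median of 0.29, or 0.18 without inhibitor replicate 2. Only 4 genes had 3 or more sites, 3 of them higher, and their median of 0.58 was 0.28 for the 17 such genes by canonical transcript. Across the canonical transcripts of 12999 tested coding genes, 18.6%, 42.8%, 55.3% and 64.7% were higher with 0, 1, 2 and 3 or more sites. The share also differed by the kind of match. Among 322 genes with an 8mer 56.2% were higher (median 0.22), among 1181 with TGGTGCT but no 8mer 40.9% were (median 0.11), and among 310 with only a 7mer-A1 34.5% were (median 0.10). Where the only TGGTGCT lay beyond the first 2000 nt, 34.1% of 578 genes were higher, and with no match of any kind 17.2% of 10608 were. UTR length ran alongside, with medians of 2194.5, 2142, 2175.5, 5207 and 1073 nt in those 5 classes, and its part was not tested.

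**Figure D2:**
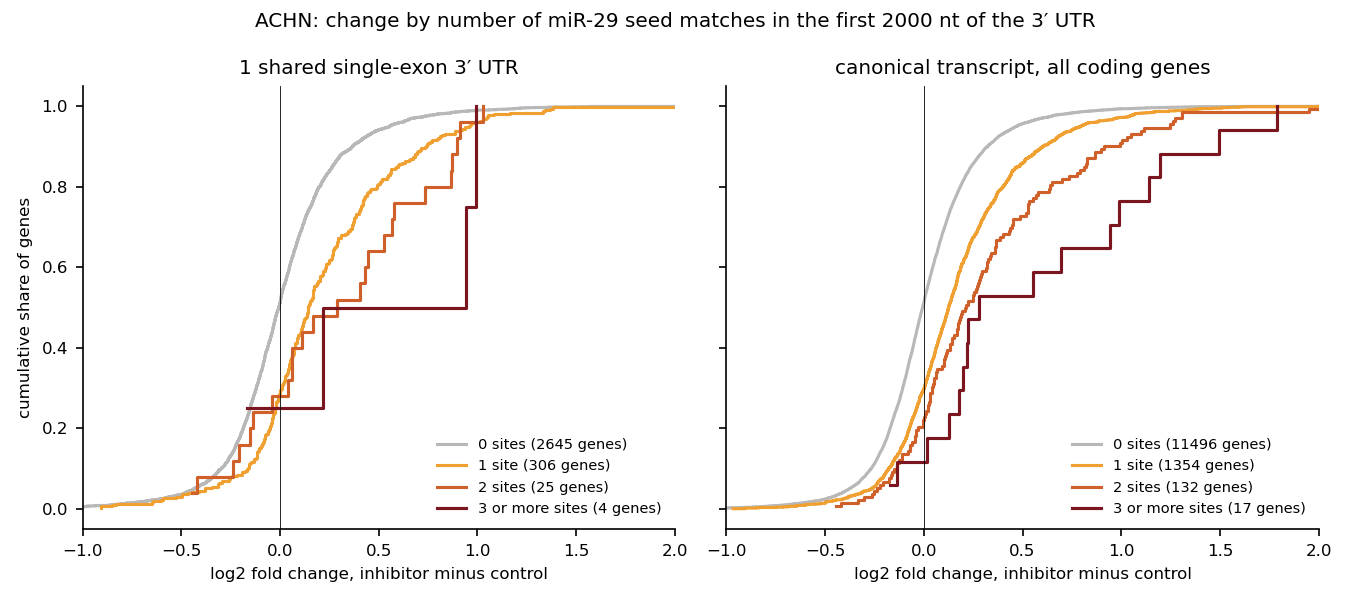
Cumulative share of genes (vertical axis) against the log2 change, inhibitor minus control (horizontal axis), by number of TGGTGCT words in the first 2000 nt of the 3′ UTR, for genes with 1 shared single-exon 3′ UTR (left) and for canonical transcripts of all coding genes (right). The curves of genes with sites lie to the right of the grey curve of genes without any, whose median is -0.01.

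Read from the other side, 23.7% of the 2797 coding genes called higher carried a site, against 8.98% of the uncalled and 5.65% of those called lower. The share was larger for larger rises, from 17.5% at folds under 1.2 to 24.4% at 1.2 to 1.5, 35.5% at 1.5 to 2 and 42.9% (54 of 126) at 2 or more. None of the 26 coding genes that fell at least 2-fold carried one. Most of the called rises had no TGGTGCT in the window, and SPARC, ITGA5, CCN2 and CDKN1A are examples. Position within the window showed no steady order, since among the 306 genes with 1 site in a shared single-exon 3′ UTR 46.7%, 34.8%, 48.8% and 42.9% were higher in the stretches of the window that end 250, 500, 1000 and 2000 nt from the stop codon.

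A panel of 34 genes that the literature names as miR-29 targets was read as a list of its own. Of these, 29 were tested, 26 were higher and none was lower, with a median change of 0.69 against 0.0038 over all genes. Of the tested members 25 carried a site, 22 of them called higher. BACE1, the protease that starts amyloid peptide release, rose from 13.1 ± 0.293 to 22.7 ± 0.889 CPM (log2 change 0.79), and progranulin (GRN) from 171 ± 5.35 to 227 ± 16.2 CPM (log2 change 0.41). Smaller rises on the log2 scale were those of the cytoskeletal switch CDC42 (0.19) and the transcription factor NFIA (0.25). VEGFA measured 55.9 ± 1.87 and 59.6 ± 3.69 CPM (adjusted p = 0.162) and PIK3R1 22.5 ± 0.93 and 23.6 ± 0.504 CPM (adjusted p = 0.366), and neither was called, although both belong to the panel. Elastin (ELN), the third uncalled member, measured 0.226, 0.237 and 0.35 CPM and 0.415, 0.286 and 0.274 CPM. The panel was drawn up from published targets, with earlier results of these data known, and is no independent evidence of a direction.

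Collagen genes moved upward in all 3 of their lists. Among fibrillar collagens only 5 of 11 were expressed enough to test, of which 3 rose and none fell. COL5A2, a chain of the type V collagen that regulates fibril diameter, measured 21.8, 21.3 and 23.7 CPM in the controls and 64.6, 71.1 and 68.7 CPM under the inhibitor (log2 change 1.61, SE 0.0528, adjusted p = 1.62e-13). COL1A1, the main chain of type I collagen, rose further but from a trace, from 1.19, 1.64 and 1.15 CPM to 7.34, 7.91 and 6.99 CPM (log2 change 2.48, SE 0.126, adjusted p = 5.41e-11), while COL1A2 and COL3A1 were below the filter in both groups. Of 12 other collagens tested 8 rose and none fell, with a median of 0.40. They included the anchoring-fibril collagen COL7A1, from 101 ± 1.74 to 150.5 ± 17.8 CPM, the network collagen COL8A1, from 208 ± 8.92 to 268 ± 18.4 CPM, and COL6A1 and COL6A2 of the beaded filaments, with log2 changes of 0.55 and 0.45. COL6A3, the third chain of those filaments, was not called, at 5.92 ± 0.262 and 6.503 ± 0.271 CPM (adjusted p = 0.245).

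Basement membrane, the sheet under epithelia, gave 13 higher and 3 lower of 21 tested, with a median of 0.28, or 0.18 without inhibitor replicate 2. COL4A1, a chain of its type IV collagen network encoded on chromosome 13, measured 672, 710.0 and 761 CPM in the controls and 1996, 2352 and 2109.5 CPM in the inhibitor libraries (log2 change 1.59, SE 0.0515, adjusted p = 1.62e-13). Its partner COL4A2 rose less, from 696 ± 72.1 to 976 ± 121 CPM (log2 change 0.49, SE 0.0707, adjusted p = 3.47e-05), and the minor chains COL4A4 and COL4A5 changed by 1.27 and 0.98. The laminin chain LAMC1 rose from 732, 767 and 752 CPM to 1491, 1557 and 1590.3 CPM (log2 change 1.04, SE 0.0343, adjusted p = 1.62e-13). The laminin linker NID1 rose from 89.1 ± 3.37 to 155 ± 7.54 CPM, a log2 change of 0.80. Not all of the sheet followed, for the laminin chain LAMA5 (-0.43) and perlecan (HSPG2, -0.26) were called lower, the second of them with a site.

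Enzymes that fold and crosslink collagen rose with it, 16 higher and 1 lower of 30 tested (median 0.23). The proline isomerase PPIC measured 17.4, 17.0 and 16.4 CPM and 43.1, 43.98 and 44.1 CPM (log2 change 1.37, SE 0.0504, adjusted p = 6.43e-13). SERPINH1 (HSP47), the collagen chaperone, rose from 144, 149 and 156 CPM to 277, 305 and 287 CPM (log2 change 0.95, SE 0.0468, adjusted p = 3.59e-11). Its window holds a 7mer-A1 but no TGGTGCT. The crosslinking oxidases LOX, from 98.0 ± 6.53 to 172 ± 6.10 CPM, and LOXL2, from 122 ± 4.35 to 242 ± 11.7 CPM, rose by 0.81 and 0.99, and the prolyl hydroxylase P3H1 and its partner P3H4 by 0.60 and 0.67. P3H3, a relative of P3H1, was the member called lower (-0.22), and protein disulfide isomerase P4HB, CRTAP and FKBP10 were not called. Of 12 elastic-fibre genes 6 rose and 1 fell (median 0.25, or 0.15 without control replicate 1). Fibrillin 1 (FBN1), the backbone of microfibrils, rose from 38.1, 37.3 and 37.8 CPM to 88.2, 94.7 and 97.0 CPM (log2 change 1.31, SE 0.0473, adjusted p = 6.20e-13) and the fibulin EFEMP1 from 0.568 ± 0.0655 to 1.16 ± 0.11 CPM (1.03).

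Matricellular and adhesive glycoproteins split, with 8 higher and 4 lower of 16 tested (median 0.19), and SPARC and FSTL1 led the rises. CCN2 (connective tissue growth factor) rose from 43.8 ± 1.58 to 74.1 ± 2.49 CPM (0.76), the proteoglycan SPOCK1 from 50.3 ± 1.75 to 77.6 ± 0.488 CPM (0.62) and tenascin C (TNC) from 58.6 ± 2.27 to 67.2 ± 0.715 CPM (0.20). Fibronectin (FN1), the main adhesive glycoprotein, went the other way, at 2359.7, 2452 and 2447 CPM in the controls and 1855, 1821 and 1897 CPM under the inhibitor (log2 change -0.38, SE 0.0297, adjusted p = 1.88e-08). Thrombospondin 1 (THBS1) fell from 5483, 5551 and 5911 CPM to 4440.3, 4939 and 4964 CPM (log2 change -0.24, SE 0.0376, adjusted p = 7.54e-05), and CCN3 from 50.5 ± 1.13 to 39.7 ± 1.36 CPM (-0.35). The groups did not overlap for any of these.

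Metalloproteinases and their TIMP inhibitors gave 17 higher and 1 lower of 28 tested, with a median of 0.33. ADAM12, a membrane-bound protease of tissue remodelling, measured 21.2, 22.4 and 19.5 CPM and 57.1, 59.5 and 57.1 CPM (log2 change 1.46, SE 0.0533, adjusted p = 6.20e-13). ADAM19 rose from 12.7 ± 0.335 to 25.5 ± 1.63 CPM (1.01), and the secreted proteases ADAMTS15, ADAMTS12 and ADAMTS9 changed by 1.34, 1.27 and 0.56. The inhibitor TIMP2 rose from 66.2 ± 4.15 to 106 ± 4.66 CPM (0.68), whereas TIMP1 was not called at 59.7 ± 1.93 and 61.7 ± 3.01 CPM. MMP17, which has a site, was the 1 member lower (-0.50). The collagenases MMP1 and MMP13 and the gelatinase MMP2 were among 11 members too low to test.

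Integrins and focal adhesion genes, which hold cells to the matrix, gave 15 higher and 3 lower of 28 (median 0.20), or 5 lower without inhibitor replicate 2. ITGA5, the fibronectin receptor chain, measured 195, 206 and 215 CPM and 394, 423 and 389.9 CPM (log2 change 0.97, SE 0.0457, adjusted p = 2.10e-11). ITGA11, a collagen receptor chain, rose from a low level of 2.28, 2.09 and 1.999 CPM to 8.08, 10.8 and 8.43 CPM (log2 change 2.09, SE 0.122, adjusted p = 4.51e-10). ITGA2, ITGAV, ITGB5 and the integrin activator FERMT2 changed by 0.58, 0.36, 0.42 and 0.46. The laminin-binding chains ITGB4 (-0.51) and ITGA7 (-0.26) were lower. The kinase PTK2 and the linker talin (TLN1) were not called.

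**Figure D3:**
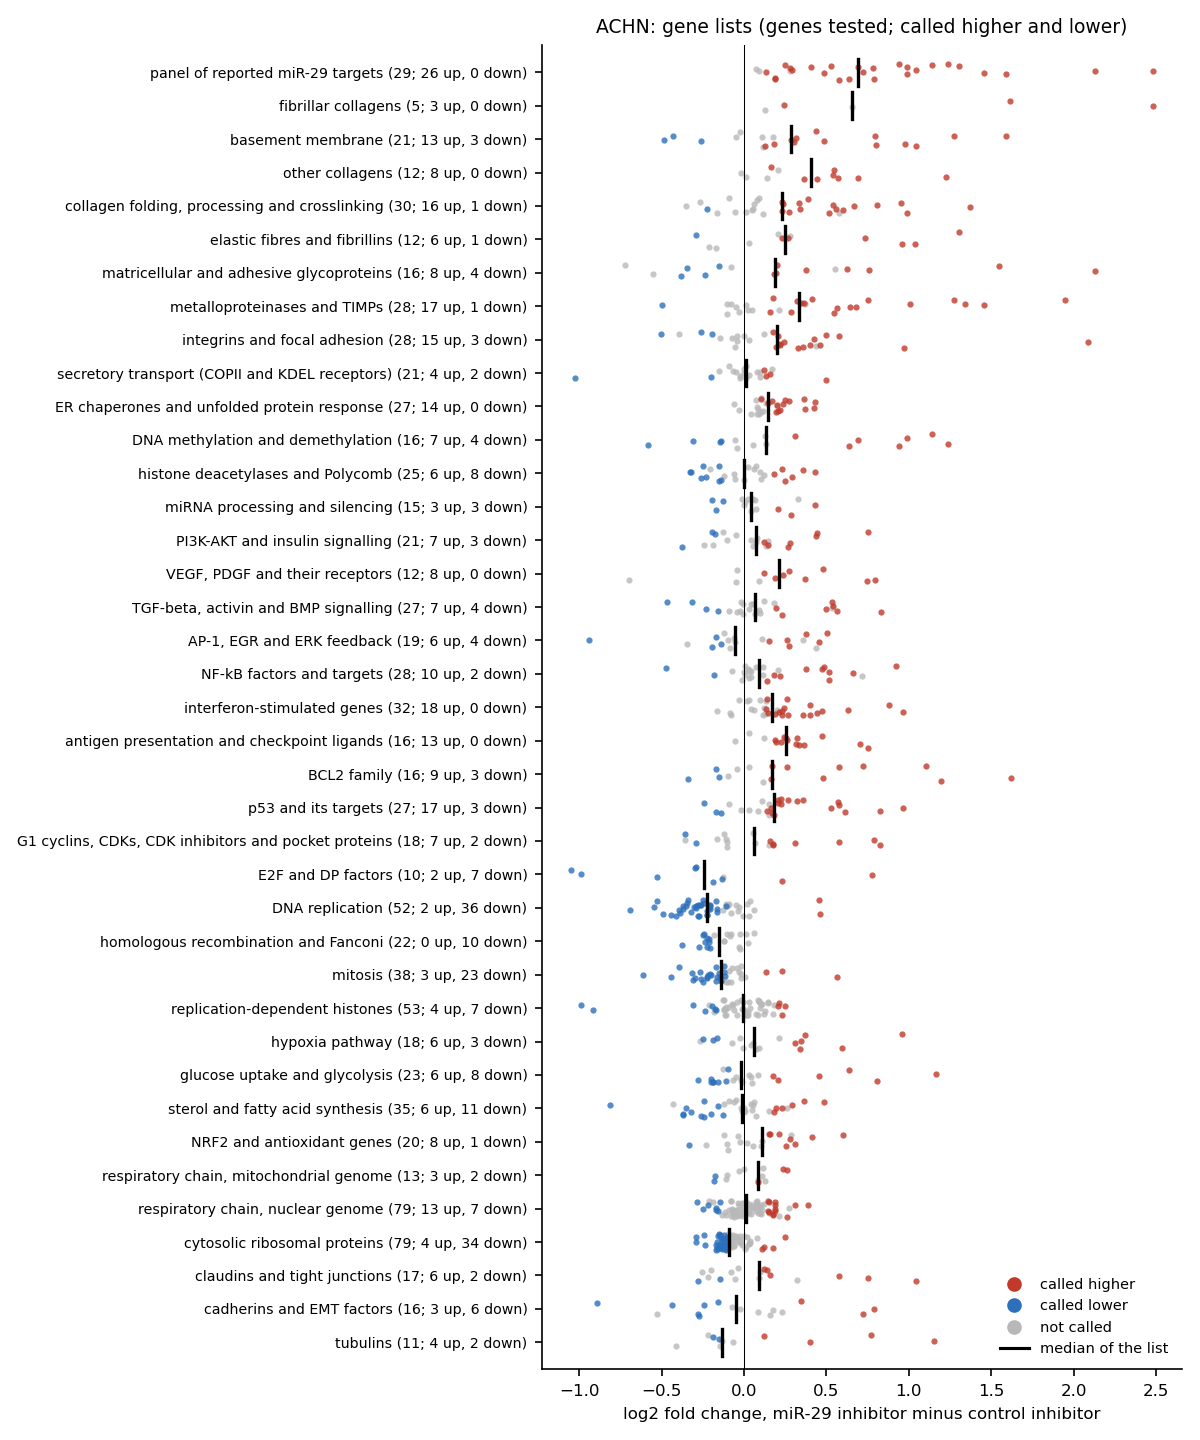
Log2 change, inhibitor minus control (horizontal axis), of each tested gene in 39 lists (rows), coloured by call, with a bar at the list's median. Matrix lists and the panel lie to the right of 0, while E2F, DNA replication, recombination, mitosis and ribosomal protein genes lie to the left.

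For the machinery that carries matrix out of the cell few genes were called. Of 21 genes of COPII vesicles and retrieval receptors 4 were higher and 2 lower (median 0.01), among them the cargo adaptor SEC24D, which rose from 45.6 ± 0.378 to 64.4 ± 3.34 CPM (0.50). The stress-linked factor CREB3L1 had the largest change of the list, from a low level of 1.15 ± 0.238 to 0.564 ± 0.0604 CPM (log2 change -1.03, SE 0.206, adjusted p = 0.000792). Without any 1 library other than inhibitor replicate 2 only 1 or 2 were higher, and without that one 4 were lower. Chaperones and stress sensors of the endoplasmic reticulum gave 14 higher and none lower of 27, with a median of 0.14. They included HERPUD1, from 118 ± 5.87 to 153 ± 6.36 CPM (0.37), TRIB3 (0.43), calreticulin (CALR, 0.20) and the stress factor XBP1 (0.27). The abundant folding enzyme PDIA6 was not called at 673 ± 11.01 and 657 ± 18.7 CPM.

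Genes of DNA methylation moved in both directions. Of 16 tested, 7 were higher and 4 lower (2 lower without control replicate 1), and 6 of the 7 with a site were higher. Those 6 also belong to the panel of reported miR-29 targets, so this count is not independent of the panel. The methyltransferases that set new marks rose, DNMT3B from 18.3, 19.4 and 18.8 CPM to 43.1, 46.1 and 44.1 CPM (log2 change 1.24, SE 0.0512, adjusted p = 2.93e-12) and DNMT3A from 42.3 ± 0.888 to 65.9 ± 3.64 CPM (0.64). All 3 TET enzymes, which oxidise methylcytosine, rose as well. TET3 went from 24.9, 26.5 and 24.1 CPM to 50.8, 49.98 and 49.2 CPM (log2 change 0.99, SE 0.0491, adjusted p = 4.10e-11), TET2 from 23.5 ± 0.88 to 38.0 ± 1.46 CPM (0.69) and TET1 from 6.46 ± 0.922 to 12.4 ± 0.98 CPM (0.94). TDG, the glycosylase that removes the oxidised base, rose from 54.0, 53.4 and 48.3 CPM to 121, 104 and 119 CPM (log2 change 1.14, SE 0.0591, adjusted p = 6.78e-11). In contrast the maintenance pair that copies methylation at replication fell, DNMT1 from 226, 224 and 240.3 CPM to 178, 188 and 189 CPM (log2 change -0.31, SE 0.0442, adjusted p = 2.67e-05) and its guide UHRF1 from 113, 115 and 127 CPM to 73.5, 82.2 and 80.9 CPM (log2 change -0.59, SE 0.0551, adjusted p = 1.91e-07). These rising 6 carry 1 to 5 sites in the window and these falling 2 carry none. GADD45B, the remaining higher member (0.31), has no site, and MBD3, which has one, was not called (-0.05). The remaining lower members were ZBTB38 (-0.15) and MBD2 (-0.14), both without a site. Histone deacetylases and Polycomb genes showed no one direction, with 6 higher and 8 lower of 25, or 4 to 5 lower without any 1 library other than inhibitor replicate 1. The Polycomb core genes EZH2 (-0.32) and SUZ12 (-0.33) were lower and HDAC4 (0.29) and CBX2 (0.36) higher.

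**Figure D4:**
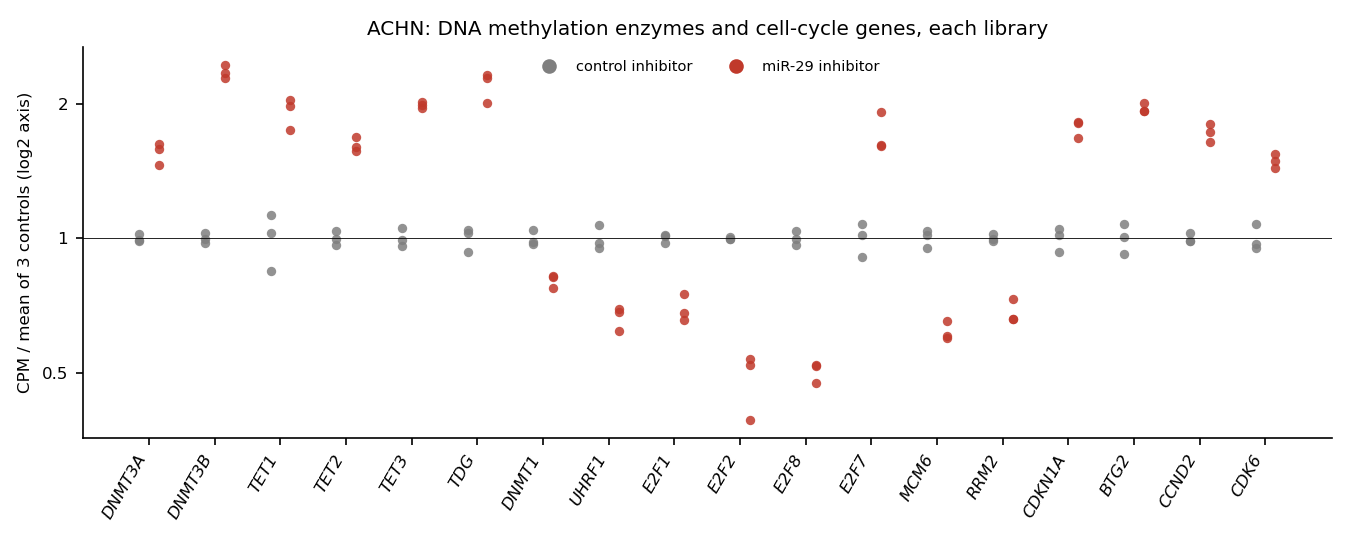
Level of 18 genes in each library divided by the mean of the 3 control libraries (log2 axis), grey for control and red for inhibitor libraries. The 3 inhibitor points lie above all controls for DNMT3A, DNMT3B, the TET genes and TDG and below them for DNMT1, UHRF1, E2F1, E2F2, E2F8, MCM6 and RRM2.

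The small-RNA pathway itself changed at single genes, with 3 higher and 3 lower of 15, or 1 lower without control replicate 1. DICER1, which cuts microRNA precursors and has an 8mer, rose from 139.9, 148 and 139 CPM to 193, 184 and 198 CPM (log2 change 0.43, SE 0.0452, adjusted p = 7.90e-07). Of the Argonautes AGO3 and AGO4 were higher (0.20 and 0.28), while AGO2 was lower (-0.13), a call lost without control replicate 1 or 2 or inhibitor replicate 1 or 3. PRKRA, a partner of DICER1, has a site and was lower (-0.20). DROSHA, which makes the first cut of a microRNA, was lower as well (-0.17), a call lost without control replicate 1.

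Growth factor signalling showed its clearest counts in the PDGF and VEGF list, with 8 higher and none lower of 12 (median 0.21). The ligands PDGFA, from 25.4 ± 1.18 to 35.4 ± 1.44 CPM (0.48), PDGFB (0.28), PDGFC (0.19) and PDGFD (0.75) all rose. So did the receptor PDGFRB, from a low level of 1.45 ± 0.151 to 2.51 ± 0.393 CPM (0.79), and the co-receptor NRP1, from 180.4 ± 5.17 to 233 ± 9.58 CPM (0.37). In the TGF-beta, activin and BMP list 7 were higher and 4 lower of 27, or 2 lower without control replicate 2 or inhibitor replicate 3. The ligands INHBA, from 385 ± 17.9 to 559.5 ± 20.0 CPM (0.54), and TGFB2, from 62.7 ± 1.39 to 88.4 ± 4.40 CPM (0.50), and the receptor TGFBR2, from 53.6 ± 2.09 to 79.3 ± 2.16 CPM (0.57), rose. The receptor ACVR2B was lower (-0.32), and the signal carrier SMAD3 was not called at 229 ± 3.25 and 239.9 ± 7.80 CPM.

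In the PI3K pathway 7 were higher and 3 lower of 21 (1 lower without inhibitor replicate 1). The regulatory subunit PIK3R3 rose from 8.20, 9.23 and 8.995 CPM to 14.1, 15.2 and 15.1 CPM (log2 change 0.75, SE 0.0731, adjusted p = 3.05e-07), and the transcription factor FOXO3, which insulin signalling restrains, from 36.4 ± 1.38 to 49.5 ± 1.74 CPM (0.44), both with a site. The receptor substrate IRS2 was lower (-0.38), and AKT2, which has 2 sites, was not called at 81.6 ± 2.89 and 84.0 ± 5.45 CPM. Immediate-early and feedback genes gave 6 higher and 4 lower of 19. Without control replicate 2 only 1 was lower, and without control replicate 1 or inhibitor replicate 1 or 3 there were 2. DUSP5 (0.45), DUSP6 (0.37) and ATF3 (0.50) were higher, EGR1 lower at 1.69 ± 0.152 to 0.892 ± 0.227 CPM (-0.94), and MYC not called at 161 ± 6.82 and 155 ± 6.15 CPM.

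Inflammatory and antiviral genes rose modestly. Of 28 NF-kB genes 10 were higher and 2 lower (median 0.09). The feedback inhibitor TNFAIP3, which has an 8mer, rose from 18.3 ± 0.979 to 29.04 ± 1.56 CPM (0.66), the growth factor CSF2 from 9.44 ± 1.17 to 17.9 ± 1.11 CPM (0.92) and IL6 from 10.8 ± 0.865 to 15.5 ± 0.448 CPM (0.52), while the chemokine CXCL2 fell from 49.3 ± 2.16 to 35.4 ± 1.86 CPM (-0.48). Interferon-stimulated genes gave 18 higher and none lower of 32, with a median of 0.17. OAS2, an antiviral enzyme that senses double-stranded RNA, rose from 2.94, 2.85 and 3.17 CPM to 5.97, 5.51 and 5.98 CPM (log2 change 0.97, SE 0.0989, adjusted p = 5.92e-07). SAMD9L rose from 46.0 ± 2.14 to 71.3 ± 4.84 CPM (0.63), and STAT2 (0.40) and IFIT2 (0.40) were higher. Only 1 of the tested members of this list carried a site.

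Antigen presentation genes were higher in 13 of 16 and lower in none (median 0.26). The checkpoint ligand CD274 (PD-L1) measured 19.8, 19.3 and 17.7 CPM and 33.3, 28.1 and 31.1 CPM (log2 change 0.70, SE 0.0654, adjusted p = 1.64e-07). CD276 (B7-H3), which has an 8mer, rose from 81.0, 86.7 and 91.1 CPM to 141, 154 and 141 CPM (log2 change 0.75, SE 0.0535, adjusted p = 5.63e-09). The class I light chain B2M rose from 562 ± 17.8 to 723 ± 21.3 CPM (0.36) and the peptide trimmer ERAP1 from 109 ± 0.771 to 138 ± 3.57 CPM (0.34). HLA-B (0.32) was also higher, but its reads are shared with near-identical genes and its count is uncertain. The immunoproteasome subunits PSMB8 and PSMB9 were not called.

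Genes on both sides of cell death rose. The BCL2 family gave 9 higher and 3 lower of 16 (median 0.17), or 1 lower without control replicate 1. Of the higher ones 2 stood at low levels, HRK from 0.188 ± 0.0551 to 0.442 ± 0.123 CPM and BCL2A1 from 0.557 ± 0.083 to 1.71 ± 0.335 CPM. MCL1, which protects cells, measured 339, 339 and 329 CPM and 561, 546 and 556 CPM (log2 change 0.72, SE 0.0361, adjusted p = 4.27e-11). BAK1, which opens the mitochondrial membrane in dying cells, rose from 26.8, 26.1 and 25.04 CPM to 58.0, 55.6 and 54.2 CPM (log2 change 1.10, SE 0.0484, adjusted p = 6.47e-12), and the killer BBC3 (PUMA) from 14.3 ± 0.367 to 21.3 ± 1.85 CPM (0.57). MCL1 and BAK1 each have an 8mer. BCL2L11 (BIM) was lower (-0.34) and BAX and BCL2 were not called.

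Targets of p53 gave 17 higher and 3 lower of 27, with a median of 0.18, or 1 lower without control replicate 1 or inhibitor replicate 2. The cell-cycle brake CDKN1A (p21) rose from 279, 289 and 256 CPM to 501.2, 497 and 461 CPM (log2 change 0.82, SE 0.0469, adjusted p = 3.09e-10) without a site. BTG2, another brake on proliferation, rose from 62.0, 66.3 and 56.8 CPM to 124, 119 and 119 CPM (log2 change 0.97, SE 0.0535, adjusted p = 1.95e-10), and SESN1, TP53INP1 and the phosphatase PPM1D changed by 0.57, 0.61 and 0.53. Of the 10 tested members with a site 8 were higher, while FAS and TIGAR, which have sites, were not called (adjusted p = 0.0573 and 0.137). Members without a site were called higher too, among them CDKN1A, ZMAT3, GDF15 and XPC. FDXR, a p53 target without a site, was not called at 127 ± 3.03 and 125 ± 6.35 CPM.

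Apart from the G1 list, the cell cycle lists had more members called lower than higher, and no set test was run. The G1 list gave 7 higher and 2 lower of 18. Cyclin D2 (CCND2) rose from 238, 247 and 238 CPM to 434, 417 and 396 CPM (log2 change 0.79, SE 0.042, adjusted p = 1.09e-10) and its kinase CDK6 from 672 ± 44.3 to 1002 ± 37.1 CPM (0.58), while the S-phase cyclins CCNE1 (-0.36) and CCNE2 (-0.29) were lower. Of 10 E2F and DP factors 7 were lower and 2 higher. E2F2, an activator of S-phase genes, measured 11.9, 12.03 and 11.9 CPM and 4.68, 6.21 and 6.41 CPM (log2 change -1.05, SE 0.0985, adjusted p = 1.88e-07), and E2F1 fell from 19.0 ± 0.405 to 13.2 ± 0.908 CPM (-0.53), with a site. The repressors split, as E2F8 fell from 13.9, 14.4 and 14.9 CPM to 6.83, 7.47 and 7.46 CPM (log2 change -0.99, SE 0.0731, adjusted p = 9.58e-09) and E2F7 rose from 171, 182 and 153 CPM to 323, 273 and 271 CPM (log2 change 0.78, SE 0.0651, adjusted p = 4.66e-08).

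DNA replication genes were lower in 36 of 52 (69.2% against 17.8% of coding genes) and higher in 2, with a median of -0.22. The helicase subunit MCM6 fell from 127, 116 and 125 CPM to 73.4, 74.2 and 79.8 CPM (log2 change -0.69, SE 0.0503, adjusted p = 7.13e-09), and MCM3 and MCM7 changed by -0.53 and -0.37. RRM2, which makes the DNA precursors, fell from 188, 189 and 195 CPM to 126, 126 and 139 CPM (log2 change -0.55, SE 0.0477, adjusted p = 7.28e-08), and the primase PRIM1 changed by -0.41. The exceptions were GINS1, which has a site and rose from 55.4 ± 1.58 to 75.8 ± 3.53 CPM (0.45), and the single-strand binder RPA1, from 143 ± 2.80 to 196 ± 3.18 CPM (0.46). Recombination and Fanconi genes gave 10 lower and none higher of 22, led by BRCA2 (-0.38), FANCI (-0.27) and BRCA1 (-0.25). Mitosis genes gave 23 lower and 3 higher of 38, or 1 higher without control replicate 2 or 3 or inhibitor replicate 1. HMMR, a spindle protein, fell from 112 ± 2.08 to 73.1 ± 6.96 CPM (-0.61), the anaphase activator CDC20 from 225 ± 3.81 to 166 ± 8.39 CPM (-0.44) and the checkpoint kinase BUB1 from 278 ± 1.51 to 211 ± 12.4 CPM (-0.40). CDC25B, a phosphatase that starts mitosis, rose from 35.1 ± 0.704 to 51.8 ± 4.498 CPM (0.56), and TOP2A and CENPF were not called.

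Replication-dependent histones did not follow the replication genes, with 7 lower and 4 higher of 53 and a median of -0.01. Without inhibitor replicate 2 there were 19 lower, and without inhibitor replicate 3 there were 8 higher. H3C8 was lower, from 10.97 ± 0.192 to 5.82 ± 0.381 CPM (-0.92), and H1-2 higher (0.21). Histone genes are near copies of each other, so single histone values are uncertain. Their mRNAs lack the usual tail, but the study prepared its libraries from total RNA by depleting ribosomal RNA.

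Metabolic lists had no common direction. In the hypoxia pathway 6 were higher and 3 lower of 18. NDRG1 rose from 42.6, 45.4 and 42.7 CPM to 82.7, 89.8 and 82.1 CPM (log2 change 0.96, SE 0.0486, adjusted p = 5.35e-11), the tumour suppressor VHL from 39.5 ± 0.257 to 59.6 ± 0.122 CPM (0.59) and the oxygen-sensing factor EPAS1 from 119 ± 1.94 to 154 ± 6.60 CPM (0.37), whereas HIF1A was lower (-0.19). Glucose uptake and glycolysis gave 6 higher and 8 lower of 23. The membrane transporters were on the higher side, SLC2A3 from 13.4, 14.3 and 12.6 CPM to 30.7, 29.9 and 29.9 CPM (log2 change 1.17, SE 0.0597, adjusted p = 6.03e-11) and SLC2A1 from 154 ± 10.6 to 212 ± 11.7 CPM (0.46), and the lower side held the enzymes ENO1 (-0.19), ALDOA (-0.20) and PFKM (-0.20). GAPDH and PKM were not called.

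Sterol and fatty acid synthesis gave 11 lower and 6 higher of 35. FASN, the fatty acid synthase, measured 116, 116 and 119.5 CPM and 63.4, 73.3 and 63.2 CPM (log2 change -0.82, SE 0.0551, adjusted p = 3.04e-09), and ACLY, SCD and the regulator SREBF1, which has a site, changed by -0.32, -0.35 and -0.37. The sterol enzyme DHCR7 was lower as well (-0.26). HMGCS1, of the sterol pathway, rose from 56.8 ± 1.97 to 79.4 ± 5.06 CPM (0.48) and INSIG1, which restrains that pathway, from 118 ± 1.36 to 144 ± 6.18 CPM (0.29), both with a site. NRF2 and antioxidant genes gave 8 higher and 1 lower of 20 (3 higher without control replicate 3 and 5 without inhibitor replicate 1), with AKR1C3 higher (0.60). Of 79 nuclear respiratory chain genes 13 were higher (16.5%) and 7 lower (8.86%), smaller shares than the 21.5% and 17.8% of coding genes. There were 8 higher without control replicate 2 and 11 lower without inhibitor replicate 2. Of 13 mitochondrial ones 3 were higher and 2 lower, and as single libraries were left out these counts ran from 1 to 5 and from 0 to 2.

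Cytosolic ribosomal proteins were lower in 34 of 79 genes and higher in 4, with a median of -0.09. Only 11 were lower without control replicate 1, and 2 were higher without control replicate 2 or 3 or inhibitor replicate 1. RPLP0, of the ribosomal stalk, fell from 3027 ± 59.1 to 2562 ± 38.0 CPM (-0.24) and RPL14 from 299 ± 2.35 to 266 ± 8.31 CPM (-0.17), while RPS24 was higher (0.17). These changes are small, and reads of many ribosomal proteins are shared with processed pseudogenes.

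Cell identity genes changed at single members. Claudins and tight junction genes gave 6 higher and 2 lower of 17, or 1 lower without control replicate 1 or 2 or inhibitor replicate 2 or 3. CLDN1, a sealing claudin, measured 243, 244 and 243 CPM and 520.2, 478 and 509.6 CPM (log2 change 1.05, SE 0.0404, adjusted p = 1.35e-12), and the junction protein F11R rose from 46.4 ± 1.01 to 78.0 ± 4.85 CPM (0.75). Cadherins and factors of epithelial to mesenchymal transition gave 3 higher and 6 lower of 16, all without sites. The higher ones were the keratin KRT7 (0.79), the cadherin CDH13 (0.35) and, at a low level of 0.938 to 1.54 CPM, the transition factor SNAI2 (0.72), which was not called without inhibitor replicate 3. Among the lower ones, vimentin (VIM), the mesenchymal filament, measured 1908, 2093 and 2143 CPM and 1503, 1522 and 1515 CPM (log2 change -0.44, SE 0.0371, adjusted p = 5.38e-08), and the epithelial keratins KRT8 and KRT18 changed by -0.24 and -0.27. EPCAM, an epithelial adhesion protein, and the kidney cadherin CDH16 changed by -0.28 and -0.89. The renal transcription factor PAX8, of the marker list, was lower (-0.23). Of 211 solute carriers tested 55 were higher and 37 lower, of 391 zinc finger genes 41 were higher and 52 lower (33 lower without control replicate 2), and of 11 tubulins, which share reads, 4 were higher and 2 lower.

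The A-498 experiment asked the reverse question, since those cells received a miR-29 mimic. If the inhibitor in ACHN and the mimic in A-498 were mirror images, the sum of their log2 changes would be 0 for each gene, and this sum was tested in 21224 genes across both lines. The sum differed from 0 in 6769 genes (31.9%), above it in 15.4% and below it in 16.4%. Cell line, reagent and transfection differ together, so which of them a difference belongs to cannot be told apart. The A-498 arm has 2 libraries of each group, after the study set aside further libraries for possible mislabelling. In that arm 25.5% of 19676 genes were higher and 27% lower.

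Many matrix genes took opposite directions in the lines but not equal sizes. For SPARC the inhibitor raised the level by 2.13 and the mimic changed it by -2.35, with a sum of -0.20 (SE 0.0528, adjusted p = 0.00483). Among genes called in both lines and averaging 3 or more in log2 CPM, LOXL2 had the most negative sum, with 0.99 in ACHN and -3.58 in A-498 (sum -2.57, SE 0.0668, adjusted p = 5.21e-17). IGSF3 (-2.51), CCDC167 (-2.21) and MYBL2 (-2.003), a transcription factor of proliferation, were also higher in ACHN and lower in A-498. The amino acid transporter SLC7A5 (sum -2.26) was instead lower in both, with -0.18 and -2.09, the ACHN call being lost without control replicate 2 or 3 or inhibitor replicate 1 or 3. Of the 27 panel genes tested in both lines the sum was below 0 in 15 and above it in 8. DNMT3B, by contrast, changed more in ACHN, with 1.24 against -0.72 and a sum of 0.54 (adjusted p = 3.13e-06). For LAMC1 the sum was 0.09 (SE 0.0525, adjusted p = 0.24) and for TDG it was 0.00 (SE 0.0964), and neither was called.

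Other groups moved the same way under inhibitor and mimic. Targets of p53 were higher in 17 of 27 genes in ACHN and in 24 of 27 in A-498, and their sum was above 0 in 24. CDKN1A changed by 0.82 and 0.57 (sum 1.41, adjusted p = 6.90e-13), and BTG2 by 0.97 and 1.00 (sum 1.99, adjusted p = 2.22e-14). Replication genes were lower in 36 of 52 in ACHN and in 35 in A-498, with the sum below 0 in 45, and mitosis genes were lower in 23 and 22 of 38, with the sum below 0 in 24. MCM6 was lower in both, with changes of -0.69 and -0.64 (sum -1.32, adjusted p = 5.45e-12). Among genes called in both lines and averaging 3 or more in log2 CPM the largest positive sums were those of HMGA2 (2.94), a chromatin protein of growing tissue, the stress factor ATF3 (2.92), the growth factor CSF2 (2.84), ANKRD1 (2.78) and the signalling adaptor TRAF1 (2.72), all higher in both. Ribosomal proteins took opposite directions, lower in 34 of 79 genes in ACHN (11 without control replicate 1) and higher in 67 in A-498, and their sum was above 0 in 40 and below it in 2. Of 52 histones tested in A-498, 47 were lower there and the sum was below 0 in 47, whereas in ACHN 7 of 53 were lower (19 without inhibitor replicate 2).

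**Figure D5:**
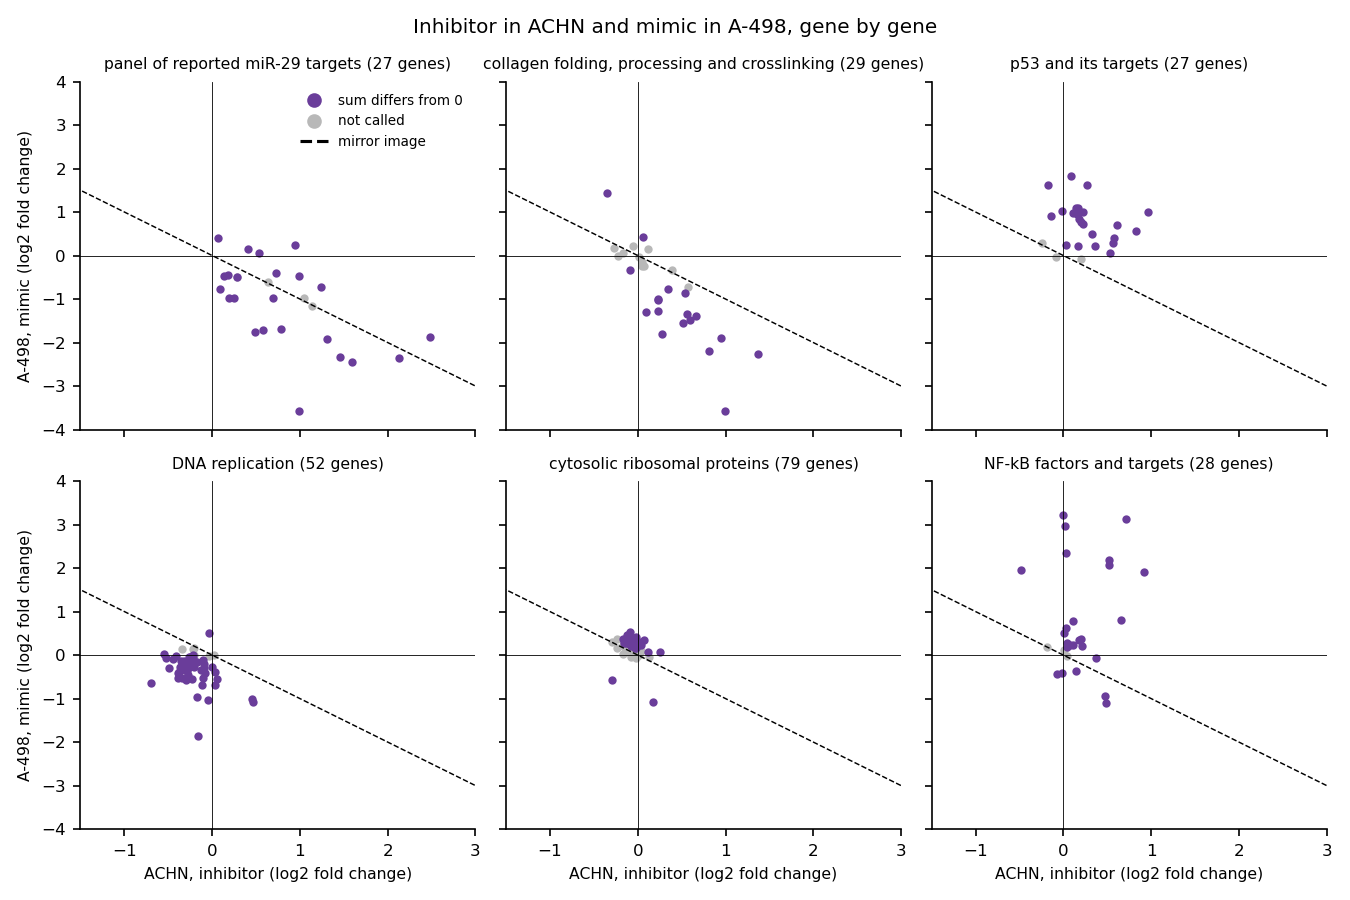
Log2 change in ACHN, inhibitor minus control (horizontal axis), against that in A-498, mimic minus control (vertical axis), for 6 lists, one point per gene, purple where the sum of both changes differs from 0. Panel and collagen-processing genes lie mostly at lower right. The sum was below 0 in 15 and above it in 8 panel genes, and below it in 16 and above it in 2 collagen-processing genes. Targets of p53 lie above the dashed mirror-image line and replication genes below it.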

How the data were processed

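The deposited counts are whole reads per gene made by the authors, who aligned stranded paired reads of 100 bp to GRCh38 with HISAT2 and counted them with HTSeq-count (intersection-strict) on Ensembl genes (tool versions not stated in the submitters' processing notes). In the ACHN libraries 38.6% to 40.6% of reads were not assigned to a gene (8.66% to 10.5% lay in no feature, and most others were of low quality or ambiguous), and the 5 summary lines of each file that hold them were left out. Tables of the authors' own DESeq2 fold changes and p-values were not used. Counts of the 6 ACHN libraries were tested with edgeR 4.0.16 (R 4.3.3; filterByExpr, TMM scaling, quasi-likelihood test), with Benjamini-Hochberg adjustment over all 17904 genes at 0.05. CPM values are TMM-scaled. The sum of the inhibitor and mimic effects was tested in 1 edgeR fit of the ACHN and A-498 libraries. Symbols, transcripts and 3′ UTRs came from GENCODE v44 (GRCh38), and 56948 of 58051 genes matched. Seed matches were searched on the sense strand in the first 2000 nt of the 3′ UTR of the canonical transcript. The mean biological variation of the ACHN libraries was 5.25%, and at their depth counting error is small beside it for all but low genes. The script was tested on simulated data. Groups followed the labels. Genes named are the 12 largest rises and falls among called genes averaging 3 or more in log2 CPM whose groups stayed apart, in each list up to 6 called members by adjusted p in the main direction, 3 in the other and 3 abundant uncalled ones, all panel, marker and host genes, and the 5 largest sums of each sign. Some genes that this rule names are not reported here. Members and lists were chosen with earlier results of these data known. Alternatives were DESeq2 1.42.0, RLE or no scaling, other filters, a threshold of 0.01, a joint fit, a replicate block, other site definitions, each library left out and, chosen after seeing the data, thinning to the shallowest library.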

Additional observations from a re-analysis of the deposited data

How the results depend on the processing

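In ACHN 3102 genes were called higher and 2578 lower, and no call changed direction under any alternative. The counts were 2673 and 2483 with DESeq2, 2970 and 2719 with RLE scaling, 2903 and 2788 with library size alone, 3307 and 2382 without a filter, 2910 and 2734 with a stricter one, 3501 and 2321 in the joint fit, 2791 and 2705 after thinning, and 2238 and 1640 at an adjusted p of 0.01. Leaving out 1 library at a time gave 2503 to 3161 higher and 2052 to 2951 lower. Of the 5680 calls it kept 4435 to 5193, DESeq2 kept 5022 and the threshold of 0.01 kept 3878. Whether the replicate numbers pair cultures is not stated in the sources used here. Same-numbered libraries deviated with correlations of 0.042, -0.050 and -0.0047, which cannot settle it. A fit with the replicate number as a block gave 3125 and 2638, with 5540 of 5680 calls kept. Of 41 lists 29 had more members higher than lower (28 to 31 without 1 library) and 11 more lower (9 to 11, and 7 in the joint fit). The sum of effects differed from 0 in 5485 to 7196 genes without 1 library, above 0 in 2517 to 3507 and below in 2960 to 3689. Median changes by sites without 1 library were -0.024 to -0.0043 with 0 sites, 0.13 to 0.15 with 1, 0.18 to 0.39 with 2 and 0.51 to 0.60 with 3 or more. With the 8mer alone the medians were 0.0028 and 0.245 for 0 and 1 sites, with no gene at 2. The whole UTR gave 0.13 for 1 and 0.22 for 3 or more sites, and the longest UTR 0.12, 0.17 and 0.22 for 1, 2 and 3 or more. For 0 sites RLE scaling gave -0.014, library size -0.017 and thinning -0.019, and for 1 site the latter 2 gave 0.13 each. The median of the AP-1 list turned from -0.06 to 0.045 after thinning and ran from -0.085 to 0.073 without 1 library (0.073 without control replicate 2), that of the claudins to -0.037 and that of the tubulins, -0.17 to 0.019 without 1 library, to 0.019 without inhibitor replicate 1. The causes were not tested. Depth limits the genes below the filter, among them most fibrillar collagens and several MMPs.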
